A study of Mus musculus with 15 samples.

Results

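The genes described here are 5 formins, Diaph1, Fmnl1, Fmnl3, Daam1 and Inf2, chosen by name as actin-nucleating proteins of microglia. Of these, 4 were listed among the 13834 genes of the table, all 4 passed the filter on low values, and Inf2 was not listed. Diaph1 had been noticed in earlier results of these data for its level in one group of libraries, so its comparisons with that group are given as a description without a test. The table held 15 libraries of sorted mouse brain microglia. High autofluorescent (AF-high, n = 5) and low autofluorescent (AF-low, n = 3) microglia came from 18-month-old mice with no treatment. The PLX5622 group (n = 4) came from 18-month-old mice that received PLX5622, a drug that blocks the CSF1 receptor and is used to deplete microglia, and the young group (n = 3) from 3-month-old mice with no treatment. The sources used here do not give strain, sex, dose, schedule, how young and PLX5622 cells were gated, or whether a library is 1 animal or a pool. The p-values therefore measure the spread between these libraries.

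Formins build straight, unbranched actin filaments. Their FH2 domains form a ring that starts a filament and stays on its growing end, while the neighbouring FH1 stretches feed it with actin carried by profilin. Most are folded shut until an upstream signal opens them. In microglia and other macrophages, actin assembly drives process movement, migration and the engulfing of particles.

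Diaph1 was at its highest in AF-low microglia, the level for which it had been noticed, so no contrast with the other formins is drawn from it. Fmnl3 and Fmnl1 were the most abundant formins, and Fmnl3 stood lowest in the PLX5622 libraries. Daam1 was low and similar in all 4 groups. Apart from Diaph1, none of the 3 listed formins passed the test in any of the 6 comparisons (limma, 0 of 18 tests). In 4 of the 18 the unadjusted p was under 0.05, a level reached by 8.21% of all 13175 genes in AF-high against AF-low, 11% in AF-high against young, 11.8% in AF-low against young, 15.3% in PLX5622 against AF-high, 14.3% in PLX5622 against AF-low and 5.23% in PLX5622 against young. Levels are in TPM, transcript abundance per length scaled to a like total per library. Changes are differences of log2(TPM + 1) with their SE, which understate the change of low genes. TPM keeps no record of reads, so the depth behind each value is unknown. In such bulk libraries, fewer cells of a type and less RNA per cell cannot be told apart.

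**Figure D1:**
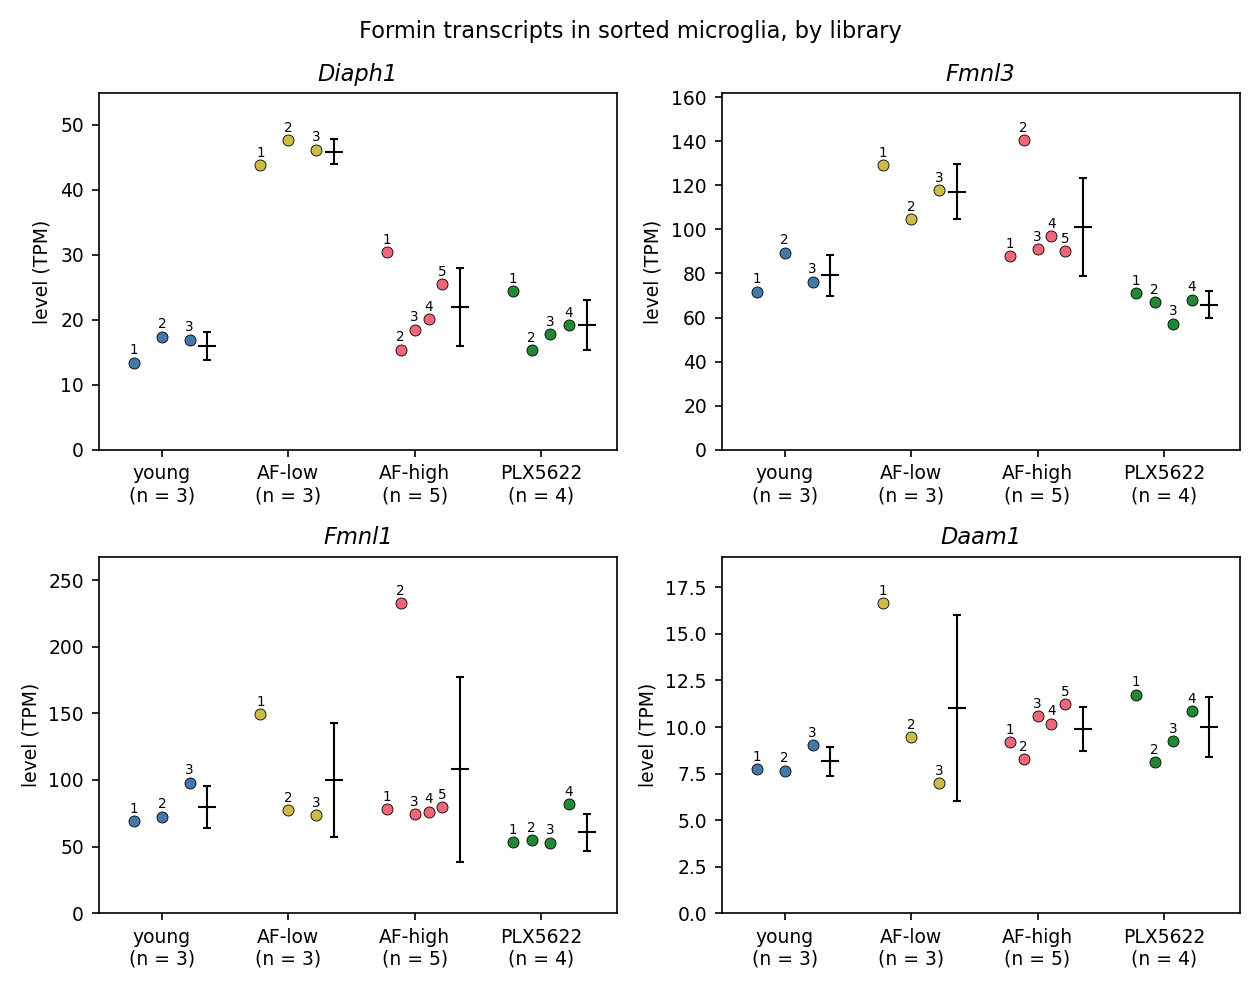
Level in TPM of 4 formins in each of the 15 libraries, by group. Points are libraries with their replicate number, and the black mark beside them is the mean with its SD. All 3 AF-low libraries lie above the rest for Diaph1, and AF-high 2 lies far above its group for Fmnl1 and Fmnl3.

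The library totals lay between 956489 and 963145 TPM. All 14 microglial markers were listed, with a summed level of 8372 to 11525 TPM in AF-low and 10701 to 14515 TPM in AF-high libraries. It was 12472 to 14154 TPM in young and 10860 to 11406 TPM in PLX5622 libraries. Rescaling each library to its genes other than numbered gene models and mitochondrial genes moved the median change of all genes by 0.10 (log2) in PLX5622 against AF-high and by 0.14 in PLX5622 against AF-low. The PLX5622 changes of the 4 formins are therefore also given relative to the median of all genes. Young 1 and 2 stood apart in markers of choroid plexus, the tissue that makes cerebrospinal fluid. Of 8 such markers 6 were listed, summing to 8805 and 5808 TPM in these libraries, 216.7 TPM in young 3 and at most 375.8 TPM elsewhere. Astrocyte markers (8 of 9 listed) summed to 256.8 and 283.5 TPM in young 1 and 2 and to at most 142.9 TPM elsewhere. The part of such RNA in the changes against young was not tested. Without young 1 and 2, Diaph1 was 1.38 higher in AF-low than in young 3 and Fmnl3 0.61 higher. Without them PLX5622 minus young was -0.71 for Fmnl1, 0.12 for Daam1 and 0.15 for Diaph1, with the lone young library assumed to vary like the other groups.

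Diaph1 (ENSMUSG00000024456.16, GRCm38 chromosome 18, 37843601 to 37935476, minus strand) encodes the formin mDia1. Its level was 43.77, 47.65 and 46.16 TPM in AF-low 1, 2 and 3. In AF-high libraries 1 to 5 it was 30.39, 15.38, 18.44, 20.05 and 25.49 TPM. The lowest AF-low library lay above the highest of the other 12, AF-high 1, so AF-low was apart from every other group. Of all genes, 1.71% were lower in AF-high than in AF-low without overlap, and 8.25% were higher in AF-low than in young. For PLX5622 below AF-low that share was 10.9%. In the young libraries Diaph1 was at 13.4, 17.4 and 16.95 TPM, and in PLX5622 libraries 1 to 4 at 24.38, 15.34, 17.77 and 19.19 TPM. These 2 groups overlapped each other and the AF-high group. By mean the order was AF-low (45.86 ± 1.955 TPM, SD, n = 3), AF-high (21.95 ± 5.977, n = 5), PLX5622 (19.17 ± 3.818, n = 4) and young (15.92 ± 2.188, n = 3).

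The ratio of the mean Diaph1 level in AF-low to that in young microglia was 2.88, to that in AF-high 2.09 and to that in PLX5622 2.39. On the log2(TPM + 1) scale AF-low was 1.48 ± 0.23 above young, while AF-high minus AF-low was -1.07 ± 0.21 and PLX5622 minus AF-low -1.23 ± 0.22. These 3 differences are the reason that Diaph1 was noticed. Over all genes, 0.0455% were called between AF-low and young, 0% between AF-high and AF-low and 0.144% between PLX5622 and AF-low. In the comparisons that leave AF-low aside, Diaph1 did not pass. AF-high minus young was 0.41 ± 0.21 (limma adjusted p = 0.503), PLX5622 minus AF-high -0.17 ± 0.19 (adjusted p = 0.731) and PLX5622 minus young 0.24 ± 0.22 (adjusted p = 0.979). Relative to the median of all genes, the PLX5622 changes of Diaph1 were -0.15 against AF-high, 0.36 against young and -1.18 against AF-low. The share of all genes called was 0% in AF-high against young, 0.63% in PLX5622 against AF-high and 0.0911% in PLX5622 against young. After rescaling, the AF-low libraries were at 52.62 to 58.03 rescaled TPM and AF-high 1, the highest of the others, at 37.64, so the groups stayed apart.

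Markers of border-associated macrophages, which line brain vessels and meninges, had their highest summed level in the AF-low group. Of 12 such markers 11 were listed, Clec10a not, and their summed level was 462.3 to 601.2 TPM in AF-low and 319.5 to 453.4 TPM in AF-high libraries. It was 243.2 to 308.8 TPM in young and 180.3 to 230.5 TPM in PLX5622 libraries. In that sum the AF-low libraries were all above the AF-high ones, and the AF-high libraries all above the young ones. The part of these cells in the Diaph1 levels was not tested.

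Fmnl3 (ENSMUSG00000023008.18, GRCm38 chromosome 15, 99317225 to 99370482, minus strand) is a formin-like protein of leukocytes and endothelium. Promoter windows in RefSeq (GRCm38.p6, 250 bases before to 50 after a start) were found for 3 of the 4 listed formins. The stretch before the first annotated start is shown for Fmnl3, the formin nearest to the test's threshold in the PLX5622 comparisons. It lies at chr15:99370522-99370732 on the minus strand, and capitals mark GC boxes, the letters GGGCGG on either strand.
Fmnl3: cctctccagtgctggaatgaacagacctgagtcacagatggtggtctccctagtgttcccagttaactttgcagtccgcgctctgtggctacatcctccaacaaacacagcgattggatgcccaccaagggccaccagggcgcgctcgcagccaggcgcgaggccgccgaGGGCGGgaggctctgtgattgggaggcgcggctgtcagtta
The whole 300-base window held 5 GC boxes, 1 of them in the stretch shown, and 35.7% of all 32851 windows held at least 1. The window held no match to GAGGAAGT, a motif of PU.1, the lineage factor of macrophages, and none to the CArG box of serum response factor.

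Fmnl3 was at 104.6 to 129.2 TPM in AF-low and at 87.74, 140.6, 91.01, 96.86 and 90.2 TPM in AF-high libraries 1 to 5. It was at 71.74, 89.49 and 76.35 TPM in young libraries and at 71.05, 67.07, 57.24 and 68.18 TPM in PLX5622 libraries. The PLX5622 libraries were all below every other library, by the smallest margin against young 1. After rescaling they overlapped the young libraries (highest PLX5622 value 94.14, lowest young value 92.53 rescaled TPM) and stayed below both old untreated groups. The order of means was AF-low (117.2 ± 12.3 TPM), AF-high (101.3 ± 22.24), young (79.19 ± 9.21) and PLX5622 (65.89 ± 6.0). AF-low and AF-high overlapped, as did AF-high and young through AF-high 1.

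From AF-high to PLX5622 the change of Fmnl3 was -0.59 ± 0.14 (95% interval -0.90 to -0.29, limma adjusted p = 0.0689), and relative to the median of all genes -0.58. From AF-low to PLX5622 it was -0.82 ± 0.17 (-1.17 to -0.47, adjusted p = 0.075), and relative to that median -0.77. Both missed the threshold, although the groups did not overlap. Non-overlap with lower PLX5622 levels was found for 4.18% of all genes against AF-high, 10.9% against AF-low and 12.7% against young. Of 28 alternative fits, Fmnl3 missed the threshold in 24 for PLX5622 against AF-low and in 27 for PLX5622 against AF-high. With 1 library left out, the limma adjusted p reached 0.268 against AF-low and 0.236 against AF-high. The PLX5622 against AF-low change passed without AF-high 2 (adjusted p = 0.0211) and without AF-low 2 (0.0306). With limma's weights per library Fmnl3 passed against AF-high (0.0343) and AF-low (0.0424), and after rescaling the values were 0.118 and 0.132.

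Between AF-low and young the change of Fmnl3 was 0.56 ± 0.18 (95% interval 0.18 to 0.94, adjusted p = 0.229). The AF-low libraries were all above the young ones, as for 8.25% of all genes. AF-high against young gave 0.33 ± 0.16 (adjusted p = 0.459), AF-high against AF-low -0.23 ± 0.16 (0.723) and PLX5622 against young -0.26 ± 0.17 (0.979), the last with an interval of -0.61 to 0.09 and a value of -0.15 relative to the median of all genes.

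**Figure D2:**
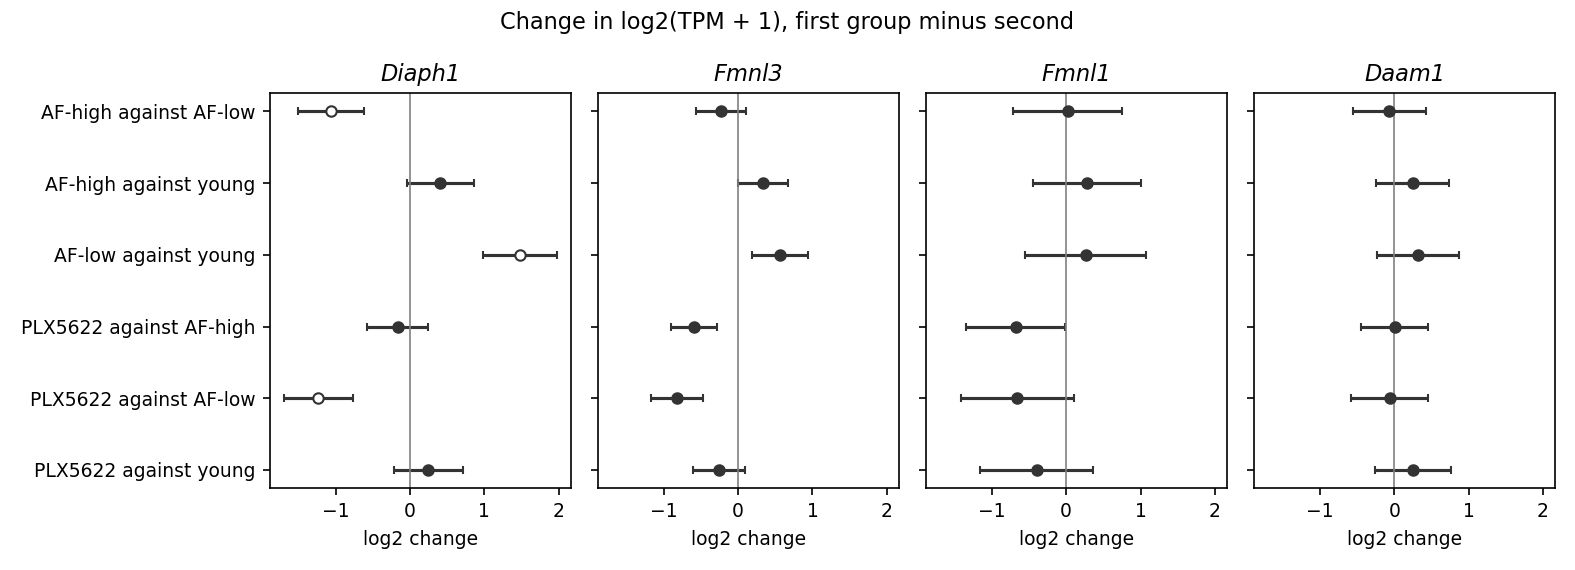
Change of each formin in log2(TPM + 1), first group minus second, in the 6 comparisons. Points are limma estimates and bars 95% intervals. Open points are the comparisons of Diaph1 with AF-low, shown as a description. Both intervals of Fmnl3 between PLX5622 and the old untreated groups lie below 0, from -1.17 to -0.29 in all.

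Fmnl1 (ENSMUSG00000055805.15, GRCm38 chromosome 11, 103171107 to 103198901, plus strand) is a formin of blood cells. The stretch before its first annotated start is shown beside that of Fmnl3 as the other abundant formin of these cells, at chr11:103170888-103171003 on the plus strand, with GC boxes in capitals.
Fmnl1: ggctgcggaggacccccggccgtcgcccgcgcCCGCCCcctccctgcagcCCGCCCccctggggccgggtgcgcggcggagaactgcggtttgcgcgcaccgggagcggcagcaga
Its window held 3 GC boxes, 2 of them in the stretch shown. At position -50 from the RefSeq start it held GAGGAAGT on the opposite strand, which contains the shorter ETS core GGAAGT. The longer motif was found in 3.2% of all windows and the shorter in 23.8%. The site, with the motif in capitals as the plus strand reads, lies at chr11:103171077-103171106. It is outside the stretch shown, after the first annotated start and before the later RefSeq start from which -50 is counted.
Fmnl1 site: cctgcaaccctACTTCCTCcccgagcctcg
A match is a description of the letters, and no binding was measured here. The antisense gene model Gm20511 overlaps the span of Fmnl1, and other gene models overlap the spans of Diaph1, Fmnl3 and Daam1. Shared exons were not examined and the strand setting of the counting is not given. The part of such models in the levels is therefore unknown.

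Fmnl1 was at 232.6 TPM in AF-high 2 and at 78.19, 74.24, 76.1 and 79.38 TPM in AF-high 1, 3, 4 and 5. It was at 149.6, 77.11 and 73.65 TPM in AF-low 1, 2 and 3. In young libraries it was at 68.96, 72.39 and 98.01 TPM and in PLX5622 libraries at 53.45, 54.74, 52.93 and 81.84 TPM. Single libraries, AF-high 2 and AF-low 1, set the means of both old untreated groups, whose medians of 78.19 and 77.11 TPM lay close together. The young median was 72.39 and the PLX5622 median 54.09 TPM. All neighbouring groups in this order overlapped.

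None of the 6 changes of Fmnl1 passed the test. PLX5622 minus AF-high was -0.68 ± 0.31 (95% interval -1.35 to -0.01, limma adjusted p = 0.317) and -0.36 without AF-high 2. PLX5622 minus AF-low was -0.66 ± 0.36 (adjusted p = 0.422) and -0.33 without AF-low 1. PLX5622 minus young was -0.40 ± 0.36 (0.979) and -0.24 without young 3. Relative to the median of all genes these PLX5622 changes were -0.66 against AF-high, -0.61 against AF-low and -0.28 against young. AF-high minus young was 0.28 ± 0.34 (0.807) and -0.03 without AF-high 2. AF-low minus young was 0.26 ± 0.38 (0.834) and -0.06 without AF-low 1, and AF-high minus AF-low was 0.02 ± 0.34 (0.993) and -0.30 without AF-high 2. In AF-high 2 the 2 listed of 11 T and NK cell markers summed to 40.28 TPM, against at most 11.17 TPM in every other library, with Cd3e, Trac and Lck not listed. That sum was 6.872 TPM in AF-low 1, the library with the next highest Fmnl1 level. The part of T and NK cells in the Fmnl1 level was not tested.

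Daam1 (ENSMUSG00000034574.10, GRCm38 chromosome 12, 71831078 to 71992333, plus strand) links Dishevelled and Wnt signals to actin. The stretch before its first start, at chr12:71830818-71830949 on the plus strand, is shown for contrast with the abundant formins, with GC boxes in capitals.
Daam1: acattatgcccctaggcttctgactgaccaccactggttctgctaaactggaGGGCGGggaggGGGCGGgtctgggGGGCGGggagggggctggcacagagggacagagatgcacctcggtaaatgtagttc
It held 3 GC boxes. Daam1 had a further RefSeq start, whose window held 0 GC boxes and 1 ETS core.

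Daam1 was at 7.744, 7.658 and 9.043 TPM in young libraries and at 9.196, 8.276, 10.59, 10.17 and 11.24 TPM in AF-high libraries. It was at 16.64, 9.443 and 6.995 TPM in AF-low 1, 2 and 3 and at 11.73, 8.101, 9.257 and 10.84 TPM in PLX5622 libraries. AF-low 1 was the highest and AF-low 3 the lowest of all 15 libraries, and every pair of groups overlapped. The largest of its changes was AF-low minus young at 0.32 ± 0.26 (95% interval -0.23 to 0.87, limma adjusted p = 0.661). Without AF-low 1 it was 0.0016, and without AF-low 3 it was 0.57. The other 5 changes lay between -0.07 (AF-high minus AF-low, 0.958) and 0.25 (PLX5622 minus young, 0.979). Over the 6 comparisons the intervals reached from -0.58 to 0.87. Relative to the median of all genes, the PLX5622 changes of Daam1 were 0.024 against AF-high, -0.011 against AF-low and 0.37 against young.

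Of the other 10 formins of the mouse, 6 were listed, and Fmn2, Fhod3, Fhdc1 and Grid2ip were not. Diaph2, the paralog of Diaph1, was at 37.77 to 54.28 TPM over all libraries, with group means of 44.13 ± 6.808 TPM in AF-low and 48.86 ± 4.979 in young. Its AF-low minus young change was -0.15 ± 0.16 (adjusted p = 0.75). The ratio of Diaph1 to Diaph2 within a library was 0.853 to 1.26 in AF-low, 0.283 to 0.756 in AF-high, 0.328 to 0.516 in PLX5622 and 0.31 to 0.345 in young libraries. Diaph1 was thus close to its paralog in the AF-low libraries and below it in the other 12. The ratio of Diaph1 to Fmnl3 did not separate AF-low. It was 0.339 in AF-low 1, 0.346 in AF-high 1 and 0.343 in PLX5622 1. Fhod1, a formin of stress fibres, was at 30.15 ± 1.11 TPM in AF-low, 28.28 ± 13.78 in AF-high, 20.97 ± 1.232 in PLX5622 and 26.56 ± 4.459 in young libraries. None of these 6 genes passed in any comparison (limma, 0 of 36 tests, and 0 at an unadjusted p under 0.05). That level was reached by 5.23% to 15.3% of all genes over the 6 comparisons. Fmnl2 and Fmn1 had group means of 7.895 to 13.99 TPM. Diaph3, a formin of dividing cells, was at 6.054 TPM in AF-low 1 and at 0.417 to 3.053 TPM elsewhere. Daam2 was at 0.741 to 2.018 TPM.

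Summed over the 10 listed formins, the level was 372.1 ± 65.04 TPM in AF-low, 341.7 ± 102 in AF-high, 248.8 ± 19.53 in PLX5622 and 280.2 ± 29.15 in young libraries. Diaph1 made up 12.61% ± 2.492 of that sum in AF-low, 7.697% ± 1.363 in PLX5622, 6.961% ± 2.782 in AF-high and 5.669% ± 0.325 in young. In this share AF-low and AF-high overlapped, with 9.798% in AF-low 1 and 10.64% in AF-high 1. Fmnl3 and Fmnl1 together made up the greater part in every group, with Fmnl3 at 26.52% to 31.76% and Fmnl1 at 24.24% to 29.7% by group mean.

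**Figure D3:**
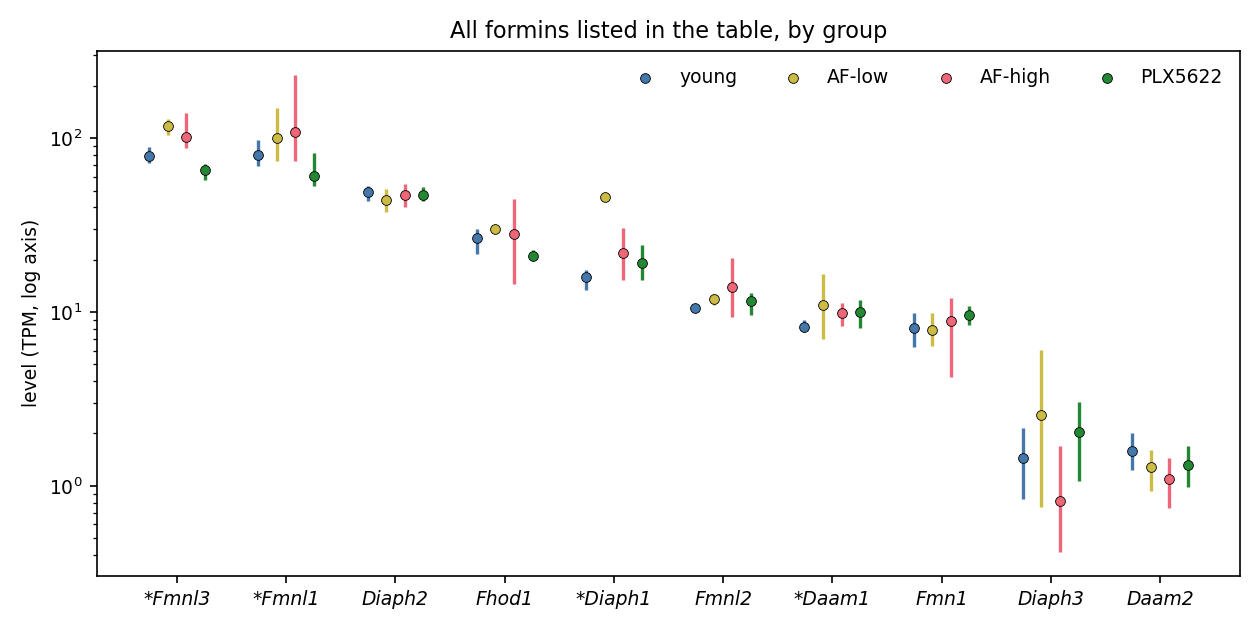
Level of the 10 listed formins by group on a log axis in TPM, ordered by mean. Points are group means and lines run from the lowest to the highest library. Stars mark the 4 formins described in detail. The Diaph1 range of AF-low, for which the gene was noticed, is 43.77 to 47.65 TPM and clear of the others. The Diaph2 ranges overlap.

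Of 17 formin partners 14 were listed, and none passed (limma, 0 of 84 tests, 3 at an unadjusted p under 0.05). That level was reached by 5.23% to 15.3% of all genes, depending on the comparison. Srgap2, which binds formins and bends membranes, was at 931.8 to 1029 TPM and the microtubule tip protein Clip1 at 197.7 to 231.9 TPM by group mean.

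All 24 genes of actin, profilin and filament turnover were listed, and none passed (0 of 144 tests, 27 at an unadjusted p under 0.05). In PLX5622 against AF-high 18 of the 24 were lower (median -0.14, against -0.02 over all genes). Counting either direction, 4 of the 24 were at an unadjusted p under 0.05, a level reached by 15.3% of all genes. Over the 6 comparisons the share of all genes at that level was 5.23% to 15.3%. Profilin Pfn1, which feeds actin to formins, was at 517.5 ± 110.8 TPM in AF-low, 452 ± 81.67 in AF-high, 302.3 ± 37.05 in PLX5622 and 340.1 ± 35.85 in young libraries (PLX5622 minus AF-high, adjusted p = 0.0983). The filament-severing cofilin Cfl1 was at 611.1 ± 107 TPM in AF-high libraries and 388.1 ± 38.69 in PLX5622 ones (adjusted p = 0.0737). Tmsb4x, which sequesters actin monomers, was at 5326 to 5698 TPM and Actb, cytoplasmic actin, at 3713 to 4863 TPM by group mean.

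The Arp2/3 complex builds branched actin and is the other main nucleator. All 9 subunits were listed, and none passed (0 of 54 tests, 7 at an unadjusted p under 0.05). That level was reached by 5.23% to 15.3% of all genes, depending on the comparison. In PLX5622 libraries 9 of 9 were lower than in AF-low (median -0.28, against -0.05 over all genes). Counting either direction, 3 of the 9 were at an unadjusted p under 0.05, a level reached by 14.3% of all genes. Against AF-high 8 of 9 were lower (median -0.29, against -0.02 over all genes). Counting either direction, 4 of the 9 were at that level, which 15.3% of all genes reached. Rescaling moves the median of all genes by 0.14 and 0.10 in these comparisons. Arpc2 was at 855.6 ± 79.18 TPM in AF-high, 834.9 ± 108.9 in AF-low, 783 ± 94.66 in young and 655.9 ± 60.77 in PLX5622, and Arpc5 had 659.4 ± 141.6 in AF-high and 461.5 ± 44.08 in PLX5622. Of 20 activators of the complex 17 were listed and 16 tested, with 0 of 96 tests passing. Of the 96, 13 were at an unadjusted p under 0.05, against 5.23% to 15.3% of all genes. Wasf2, a subunit of the WAVE complex, was at 240.8 ± 31.79 TPM in AF-high libraries and 136.5 ± 16.91 in PLX5622 ones (adjusted p = 0.0669). Cyfip1 and Abi3, subunits of the same complex, had group means of 766.5 to 884.9 and 222.8 to 338.2 TPM.

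Of 18 genes in the list of serum response factor, its actin-sensing partners and actin-linked genes, 14 were listed, with 17 of 84 tests at an unadjusted p under 0.05. By comparison, 5.23% to 15.3% of all genes were at that level. In this list 1 gene passed (0.471% of all genes passed with a lower level in that comparison), Filip1l, a relative of a filamin-binding protein, which fell from AF-high to PLX5622. It was at 134.3, 143.1, 170.9, 96.2 and 168 TPM in AF-high 1 to 5. In PLX5622 1 to 4 it was at 72.79, 75.62, 70.12 and 92.84 TPM, lower without overlap, as for 4.18% of all genes. The change was -0.84 ± 0.16 (limma adjusted p = 0.0362). The call was lost on rescaling (0.0636), without AF-high 2 or 5, and without any of the young or PLX5622 libraries (0.0539 to 0.157). Tpm3, a tropomyosin, was at 1336 to 1574 TPM and Tagln2, an actin-bundling protein, at 123.1 to 242.6 TPM by group mean.

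Genes with a profile like that of Diaph1 were ranked over the 15 libraries by the root mean square difference between profiles in log2(TPM + 1), each centred on its own mean. Of 9138 genes the nearest were Cdk6, a cell-cycle kinase (0.316), Clcn6, a late endosomal chloride transporter (0.328), the ribosome assembly factor Eif6 (0.331), the major vault protein Mvp (0.331) and the mitochondrial helicase Supv3l1 (0.34). Among the formins Fmnl3 ranked 649 (0.489), Daam1 1642 (0.538) and Fmnl1 7083 (0.744), so other formins were not among the nearest. Clcn6 was at 17.79, 23.26 and 29.1 TPM in AF-low 1, 2 and 3 and at 10.27 to 18.54 TPM in AF-high libraries. Clcn6 overlapped between those groups, and so did the other 4 genes. Diaph1 was chosen for its AF-low level, so its lack of overlap there was fixed beforehand and no contrast is drawn. Cdk6 was at 103.5 ± 33.01 TPM in AF-low, 66.17 ± 26.86 in AF-high, 46.88 ± 4.976 in PLX5622 and 46.98 ± 5.835 in young libraries. The 15 libraries of this ranking share 4 groups and are not independent points.

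**Figure D4:**
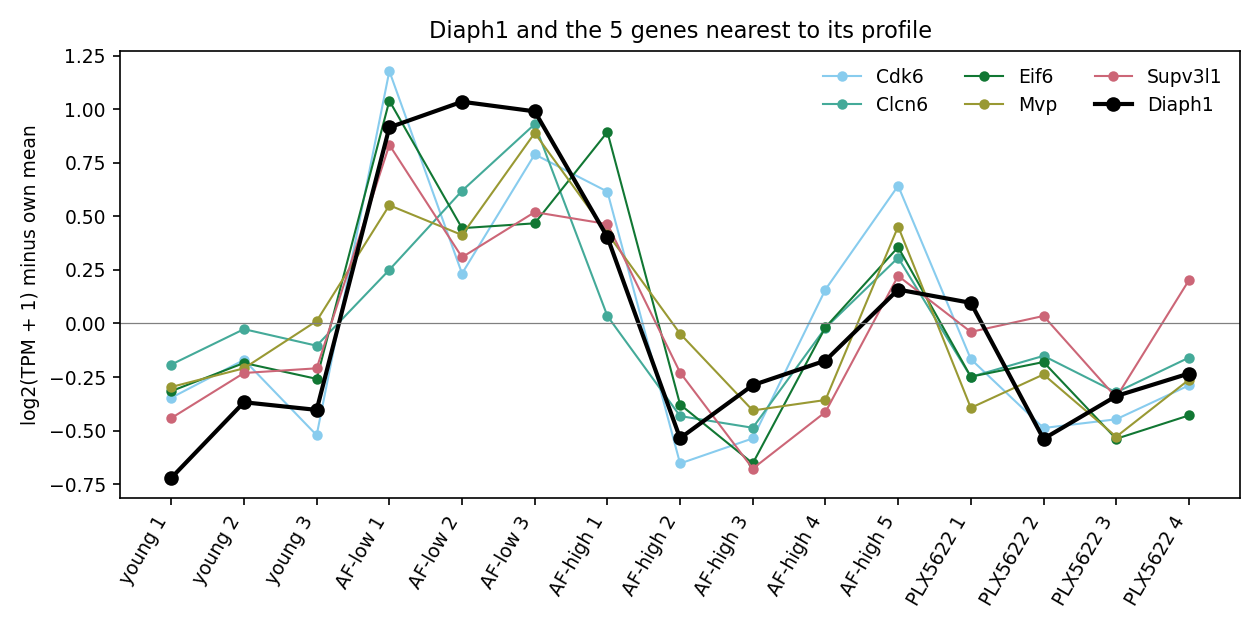
Level of Diaph1 and of the 5 genes nearest to it in each library, as log2(TPM + 1) minus the gene's own mean. All 6 lines are above 0 in the 3 AF-low libraries.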

How the data were processed

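RNA from microglia sorted out of mouse brain was kept in RNAprotect, purified (RNeasy), amplified (Ovation RNA-seq system) and made into low-input libraries, per the labels' protocols. The deposited table holds TPM, a length-corrected transcript abundance scaled by the authors to a like total per library. FastQC 0.11.8, Salmon 1.0.0, DESeq2 (no version) and build GRCm38 (mm10) are named, per the submitters' processing notes. The filter, annotation and strand setting were not given in the sources used here. Columns were matched to libraries by the labels' short names. The table listed 13834 genes, and 0 of its values equalled 0.

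Values were taken as log2(TPM + 1) for the 13175 genes with at least 1 TPM in at least 3 libraries. All 15 libraries entered 1 fit with limma 3.58.1 in R 4.3.3 (eBayes with a variance trend; 11 residual and 4.151 prior degrees of freedom), with 6 two-sided comparisons. Calls needed a p under 0.05 after Benjamini-Hochberg adjustment over all 13175 genes. The script was tested on simulated data. Count tests were not run because the table holds no counts. Figures were drawn with matplotlib 3.10.9 in Python 3.11.15.

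The members and the gene lists were chosen with earlier results of these data known. Of each list the text names the 2 genes of highest mean TPM and up to 3 called genes. Beyond that rule it names Pfn1, Cfl1 and Wasf2, chosen after their values were seen. Of the formins it names all. Likeness to Diaph1 was ranked over genes with a mean of at least 5 TPM. Some gene lists examined are not reported here.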

Additional observations from a re-analysis of the deposited data

Results flagged for a closer look

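In 3 of the 8 sets of libraries checked (4 formins, each in the AF-high and the PLX5622 group), 1 library lay far from the others of its group by Dixon's gap test. Chance flags about 1 in 20 such sets. Fmnl1 was at 232.6 TPM in AF-high 2, where the other 4 AF-high libraries had 74.24 to 79.38 TPM. Fmnl3 was at 140.6 TPM in the same library, where the other AF-high libraries had 87.74 to 96.86 TPM. Fmnl1 was at 81.84 TPM in PLX5622 4, where the other 3 PLX5622 libraries had 52.93 to 54.74 TPM.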

How the results depend on the processing

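The number of the 4 listed formins past the threshold was 1 in AF-low against young, 1 in PLX5622 against AF-low and 0 in the other 4 comparisons. The gene behind both counts of 1 is Diaph1, chosen for its AF-low level, so these counts describe the table and support nothing. Over 28 alternatives its difference was 1.37 to 1.54 in AF-low against young and -1.35 to -1.09 in PLX5622 against AF-low. The count in AF-low against young was 0 with only both groups in the fit, without AF-high 2 and 3 and AF-low 1 together, and without young 1 and 2 together. In PLX5622 against AF-low it was 0 under quantile normalization, on rescaled values, with weights by group, without the variance trend, with only both groups and without young 1 and 2 together. There it was 2, with Fmnl3 added, under weights per library and without AF-high 2 and 3 and AF-low 1 together. In PLX5622 against AF-high it was 1 under weights per library. Leaving out 1 library at a time gave counts of 0 to 1 in AF-low against young and of 0 to 2 in PLX5622 against AF-low. The cause of these moves was not tested.

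No label says that equal replicate numbers mark a shared animal or day, and deviations of the 19 same-numbered library pairs correlated between -0.08 and 0.14. With the replicate number as a block, the count was 0 in AF-low against young and 0 in PLX5622 against AF-low.

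Small changes turned sign. Daam1 in PLX5622 against AF-low was 0.080 on rescaled values, 0.093 under weights per library and 0.25 without AF-high 2 and 3 and AF-low 1 together. Daam1 in AF-high against AF-low was 0.16 and 0.29 under the last 2 of these settings, and in PLX5622 against AF-high -0.063 and -0.037. Fmnl1 in AF-high against AF-low was -4.43e-05 under weights per library. Fmnl1 in AF-high against young was -0.017 without AF-high 2 and 3 and AF-low 1 together and -0.028 without young 1 and 2, and in AF-low against young -0.064 and -0.048. By single libraries left out, the range for Fmnl1 was -0.30 to 0.35 in AF-high against AF-low, -0.034 to 0.44 in AF-high against young and -0.064 to 0.44 in AF-low against young. For Fmnl1 it was -0.84 to -0.33 in PLX5622 against AF-low and -0.54 to -0.24 in PLX5622 against young. For Daam1 it was 0.0016 to 0.57 in AF-low against young, -0.32 to 0.25 in AF-high against AF-low, -0.069 to 0.093 in PLX5622 against AF-high and -0.32 to 0.25 in PLX5622 against AF-low. The call of Filip1l held in 13 of 28 alternatives. Over all genes the number called ranged from 0 to 1 in AF-high against AF-low (0 as reported), 0 to 129 in AF-high against young (0), 0 to 182 in AF-low against young (6), 0 to 441 in PLX5622 against AF-high (83), 0 to 398 in PLX5622 against AF-low (19) and 0 to 420 in PLX5622 against young (12). TPM carries no depth, which limits what can be said of low genes such as Daam1.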
